A study of Homo sapiens with 7 samples.

Results

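Replication-dependent histone genes make the bulk of the core histones (H2A, H2B, H3 and H4) and of the linker histone H1 that package new DNA during S phase. They sit in clusters, have no introns in their main transcripts, and their mRNAs usually end in a conserved stem-loop, bound by SLBP, instead of a poly(A) tail. A library made from poly(A)-selected RNA therefore captures them poorly, and what it counts is the captured share of each mRNA. The histone cluster genes were chosen here by symbol, as the rows whose older symbol begins with HIST1 to HIST4 followed by H1, H2A, H2B, H3 or H4 and does not end in P, with at least 10 counts summed over all samples. This gave 72 of the 57189 genes in the table. They comprised 6 H1, 16 H2A, 21 H2B, 16 H3 and 13 H4 genes, of which 52 belong by name to the HIST1 cluster on chromosome 6 and 15 to HIST2 on chromosome 1, with 4 in HIST3 and 1 in HIST4. The annotation places 1 of the HIST1 names, the pseudogene HIST1H2BPS3, on chromosome 13.

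The counts came from RH30, an established cell line of alveolar rhabdomyosarcoma with wild-type genotype in the labels, which the study's methods describe as carrying GFP and luciferase. The comparison asks how the transcriptome differs between 3 samples that received BV6 at 5 µM over 24 h (BV6 2, 3 and 4) and 4 untreated samples (untreated 1 to 4). BV6 belongs to the Smac mimetics, compounds that antagonise the inhibitor of apoptosis proteins. The samples represent a single cell line. Their numbers were assigned here from the BC labels in the sample titles, and the titles do not say what these labels mean. The study calls such samples biological replicates.

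Total counts per sample ranged from 54070030 to 77220882, and 3 counts, taken as the lowest detectable level, corresponded to 0.0389 to 0.0557 counts per 1000000 (CPM, relative to the TMM-normalized library size). Muscle markers of the cell line (MYOD1, MYOG, DES and others, 16 in all) summed to 2360 to 3694 CPM. The lowest sum was that of BV6 3 and the highest that of untreated 4. The 12 leukocyte markers summed to 19.8 to 33 CPM, or 1216 to 2013 counts a sample. Single markers differed widely, with CD3D at 0 in 3 of the 7 samples and CD68 at 125 to 296 counts. In the comparison below, 8 of the 12 were tested. The 8 markers of fibroblasts, epithelium and endothelium summed to 27.3 to 73.9 CPM and were carried mostly by PECAM1, while EPCAM had at most 8 counts.

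The stem-loop that ends these mRNAs is the feature that sets the class apart, and its letters are shown to compare its forms between the histone classes. Its conserved letters are a stem of 6 base positions that opens with GG and closes with CC around a loop of 4 bases. They were found on the coding strand within 150 bases after the stop codon in 65 of the 65 protein-coding members (GRCh38, GENCODE annotation). Over all 19947 protein-coding genes, a number that includes these members, they were found in 73 (0.366%). In the members the stem-loop started 22 to 67 bases after the stop codon, with a median of 35 bases. The forms below are written as DNA from 5′ to 3′, and capitals mark the 4 bases of the loop.
Form of 38 genes of the H1, H2A, H2B and H3 classes: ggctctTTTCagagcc
Form of 9 genes, 5 of them H2B: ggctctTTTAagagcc
Form of 8 H4 genes: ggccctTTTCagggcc
Form of 4 H4 genes: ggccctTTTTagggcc
HIST2H2AC: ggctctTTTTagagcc
HIST1H2AG: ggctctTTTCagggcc
HIST1H2AK: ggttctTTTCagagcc
The 13 H4 genes carried a stem of their own, ggccct with agggcc, in 13 of 13 cases. In all, 6 forms occurred in 1 member each. They are shown for the 3 H2A genes that were also among the 5 members with the smallest p in the comparison of BV6 with untreated cells, and the other 3 belong to HIST1H2BI, HIST1H3E and HIST1H4L. This is a description of letters beside values, and no relation between them was tested. In HIST2H2AC the stem-loop lies at chr1:149887391-149887406 on the plus strand, in HIST1H2AG at chr6:27133515-27133530 on the plus strand, and in HIST1H2AK at chr6:27837885-27837900 on the minus strand, each in the 3′ untranslated region.

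The hexamer AATAAA, the usual signal for adding a poly(A) tail, stood within the same 150 bases in 5 of 65 members (7.69%) against 2772 of 19947 protein-coding genes (13.9%). The members were HIST1H1C, HIST1H2BD, HIST1H4J, HIST2H2AA3 and HIST2H2AA4, of which HIST1H2BD and HIST1H4J were named after their values were seen. Of the 7 members with the most reads per length, HIST1H1C and HIST1H2BD had the hexamer, while HIST1H2BK, HIST1H2AG and HIST1H4I did not. The pseudogenes HIST2H2BD and HIST1H3PS1, also among the 7, were not searched. HIST1H4J, HIST2H2AA3 and HIST2H2AA4 ranked 20, 8 and 9 per length. A relation between hexamer and level was not tested. The surroundings of the hexamer (capitals) are shown for HIST1H1C and HIST1H2BD.
HIST1H1C: ctgatctcAATAAAagagctgg
HIST1H2BD: atgttttcAATAAAtgagttgt
In HIST1H1C the hexamer began 55 bases after the stop codon, at chr6:26055726-26055731 on the minus strand, and in HIST1H2BD 64 bases after it. The annotated transcript of HIST1H1C ends 47 bases after the stop codon, before the hexamer. By the annotation, 18 members have a transcript that ends more than 100 bases past the stop codon, and 47 do not. The 18 had a median total count of 290.5 and the 47 one of 64. Per length the order was the other way round, with medians of 0.272 and 0.318 CPM per kilobase, since the longer transcripts also lengthen the gene model.

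The histone cluster genes were a small fraction of the libraries. Their counts made up 0.00539% of all counts, with 0.00423 to 0.00710% in single samples, and their summed level averaged 53.8 CPM. For comparison, 15 replacement histones, whose mRNAs are polyadenylated (H3F3A, H3F3B, H2AFZ and others), summed to an average of 2201 CPM. Counts were low in most members, with 38 members under 100 counts in total over the 7 samples, 27 from there to under 1000 and 7 at 1000 or more. A count of 0 occurred in at least 1 sample for 27 members, and 40 members had 3 or more counts in all 7 samples. Just inside the minimum of 10 counts stood HIST1H2BM, HIST1H2BH and HIST1H2BPS3 with 10 counts each, and just outside it 5 genes with 8 counts.

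A few genes carried most of the signal, and 7 members together held at least 50% of the summed CPM. The levels per length below are in CPM per kilobase of annotated exon and cover all 7 samples. They depend on the annotated length, which is not that of the authors' gene model and includes long transcript ends in some members. The order of genes therefore partly reflects the annotation. HIST1H1C, a somatic linker histone H1 gene on chromosome 6 (GRCh38, 26055740 to 26056470, minus strand), was at the top with a mean of 10.3 and provided 14% of the members' CPM. HIST1H2BK, a core histone H2B gene (chromosome 6, 27146361 to 27146855), followed with a mean of 9.31. In untreated samples the 2 genes had means of 11.0 ± 2.02 and 10.0 ± 2.37 (SD, n = 4), a difference within their spread.

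HIST2H2BD, annotated as a transcribed pseudogene of H2B in the HIST2 cluster (chromosome 1, 149843041 to 149843533), had a mean of 6.46 CPM per kilobase. HIST1H3PS1, a processed pseudogene of H3 (chromosome 6, 26321876 to 26322292), had 5.35 and thereby the highest value of its class. Its sequence of 417 bases is 91.8% identical to the transcript of H3F3A, which encodes the replacement histone H3.3 and was at 436 ± 45.8 CPM in untreated samples (SD, n = 4), and at most 73.9% identical to the H3 genes among the members. How the counting treated reads that match several genes is not given in the sources used here, so the level of HIST1H3PS1 is uncertain.

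HIST1H2AG had a mean of 4.53 CPM per kilobase and HIST1H4I one of 4.52, the highest values of the H2A and H4 classes. The remaining members extended down to 0.00738 in HIST2H3PS2, named here for its place at the end of the order. Its annotated exons span 3970 bases, which lowers its level per length. The 7 annotated pseudogenes together accounted for 10.6% of the members' CPM.

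**Figure D1:**
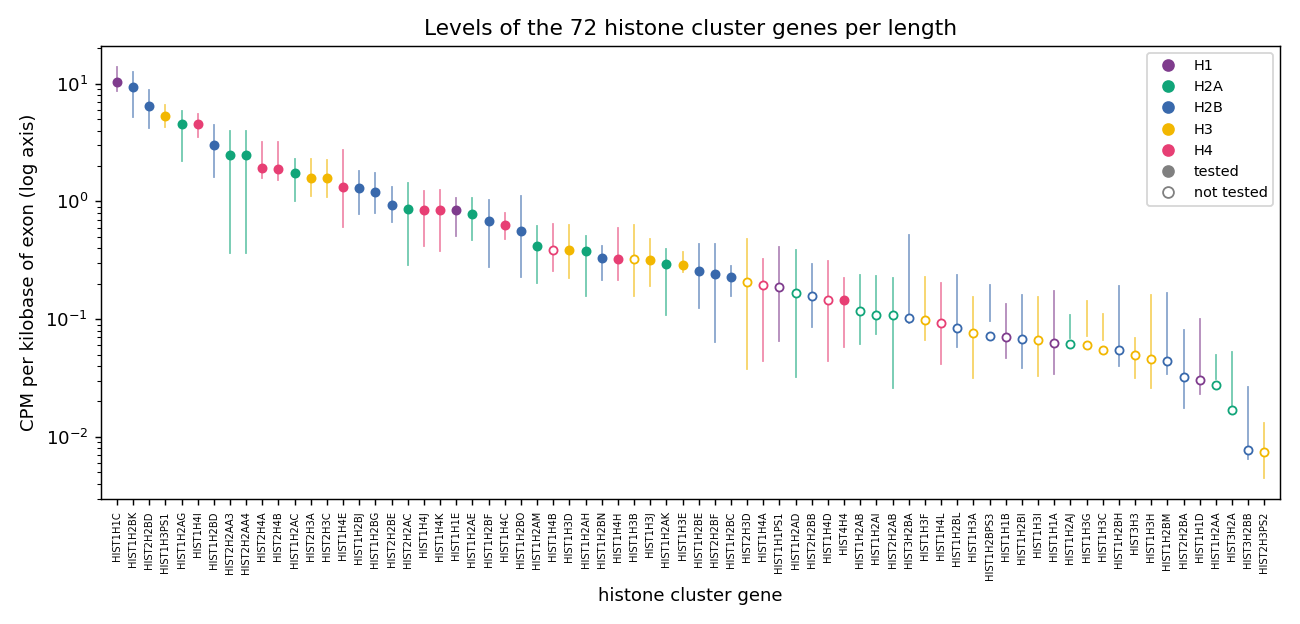
Level of each of the 72 histone cluster genes in CPM per kilobase of annotated exon, on a log axis, ordered by the mean over the 7 samples. Points are means, lines span the lowest nonzero to the highest sample, colours give the histone class and open points mark genes with too few counts to be tested; HIST1H1C stands at 10.3 and HIST1H2BK at 9.31.

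Near-identical copies limited what single genes can show. The genomic sequence from the gene start to the end of the stem-loop was compared. HIST2H2AA3 and HIST2H2AA4 did not differ over 528 bases, nor HIST2H3A and HIST2H3C over 513 bases. HIST2H4A and HIST2H4B did not differ over 391 bases, while HIST1H4J and HIST1H4K differed at 2 of 383 bases. The gene models of HIST2H4A and HIST2H4B are longer, with 1878 exonic bases each, and the rest was not compared. The counts of the partners nearly coincided. HIST2H3A and HIST2H3C had equal counts in all 7 samples, and the largest difference in any sample was 4 counts for the HIST2H2AA pair, 8 for the HIST2H4 pair and 2 for HIST1H4J with HIST1H4K. The members of a pair are therefore not separate evidence. Sums, medians and counts of genes below nevertheless include both of them. With 1 gene of each near-identical pair, the log2 ratio of the summed CPM, BV6-treated over untreated, was -0.26 in place of -0.28. Further, 15 members share exonic bases with another gene, 9 with a gene of the same strand and 7 with a gene of the opposite strand. HIST2H2BD lies wholly within the exons of another annotated gene of its strand, and its counts may include reads of that gene.

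Summed over all members, the level was lower on average in BV6-treated cells, but the groups overlapped. The untreated samples had 57.5, 50.1, 70.5 and 54.4 CPM and the BV6 samples 47.9, 41.1 and 55.0 CPM. The means were 58.1 ± 8.80 (SD, n = 4) and 48.0 ± 6.98 (SD, n = 3), with a log2 ratio of -0.28. BV6 4 lay above untreated 2 and 4, and untreated 3 was the highest sample. A lower value in bulk RNA cannot tell fewer cells in S phase from less histone mRNA per cell, or from a smaller captured share.

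The same held in each of the 5 classes. H2A had 10.7 ± 1.55 CPM in untreated and 7.83 ± 2.01 CPM in BV6-treated samples, the widest gap on the log2 scale (-0.45). H2B, the class with the most signal, had 19.8 ± 2.17 and 16.7 ± 3.24 CPM, and H4 had 12.8 ± 3.65 and 10.4 ± 0.791 CPM. In H4, untreated 3 stood alone at 18.2 CPM, and without it the log2 ratio was -0.08 in place of -0.30.

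H1 summed to 8.94 ± 1.62 and 7.69 ± 0.523 CPM, of which HIST1H1C was the main part. Without HIST1H1C the log2 ratio of the H1 class was 0.12 in place of -0.22, so its direction rested on that gene. H3 had 5.89 ± 0.813 and 5.38 ± 0.714 CPM with a log2 ratio of -0.13, which was -0.34 without the pseudogenes. The groups overlapped in all 5 classes. Between samples of the same replicate number, H2A was lower with BV6 in 3 of 3 pairs (8.75 against 7.91, 12.1 against 5.79 and 10.1 against 9.81 CPM), and each of the other 4 classes in 2 of 3, as was the sum over all members.

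**Figure D2:**
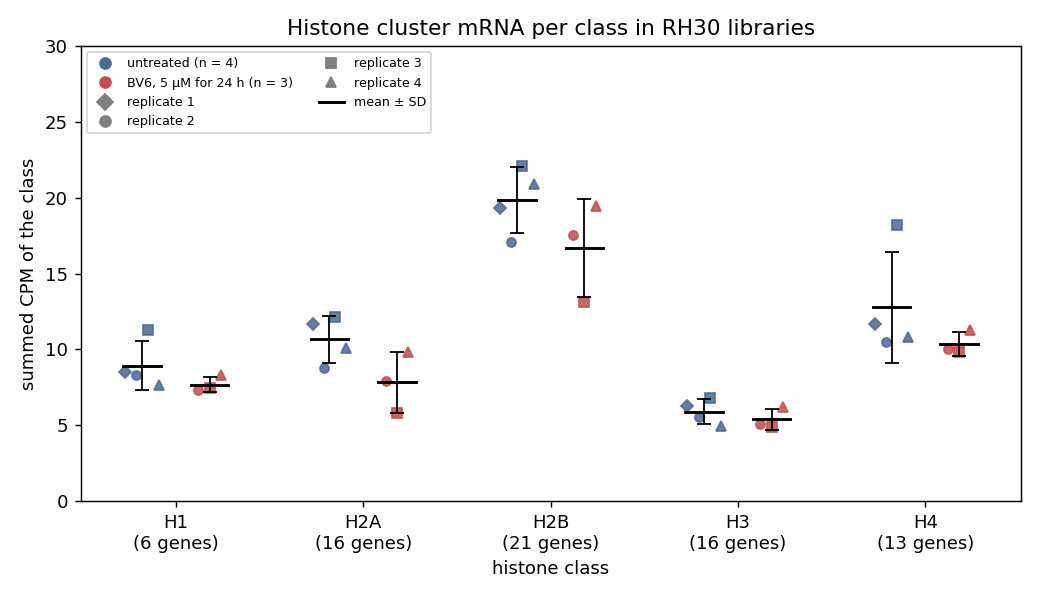
Summed CPM of the 5 histone classes in each sample, with the mean and SD of the 4 untreated and the 3 BV6-treated samples and marker shapes for the replicate number. The groups overlap in every class, and untreated 3 is the highest sample of the H4 class at 18.2 CPM.

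By cluster, the HIST1 genes had 37.5 ± 4.02 CPM in untreated and 32.8 ± 4.15 CPM in BV6-treated samples. The HIST2 genes had 20.1 ± 4.6 and 14.8 ± 2.73 CPM. The groups overlapped in both clusters. HIST3 summed to 0.195 ± 0.140 and 0.0524 ± 0.0173 CPM, and its groups did not overlap. These sums rest on 6, 8, 24 and 10 counts in untreated and 4, 3 and 2 counts in BV6-treated samples, and none of the 4 genes was tested. Between samples of the same replicate number, the BV6 sample was the lower one in 3 of 3 pairs for HIST2 and HIST3 and in 2 of 3 for HIST1.

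For single genes, 38 of the 72 members passed the filter on low counts and were tested with the quasi-likelihood test of edgeR, adjusted over all 23124 genes tested, and 34 were not. The untested members summed to 1.79 CPM on average. No histone cluster gene was called at an adjusted p below 0.05 with edgeR, where 0.45% of all genes tested were called. DESeq2 and limma-voom also called 0. At an unadjusted p below 0.05, edgeR gave 3 of the 38 members (7.89%), against 8.39% of all genes tested in either direction. All 3 members were lower in BV6-treated cells, where 4.26% of all genes tested were lower at this p. In either direction the share of members is thus close to the background.

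The fitted log2 fold change was below 0 in 27 of the 38 tested members (71.1%) and in 52.3% of all genes tested. Its median was -0.26 over the members, with a range of -1.32 to 0.46, and -0.014 over all genes tested. In the H4 class 9 of 9 tested genes had a value below 0, between -0.51 and -0.20, among them the 2 near-identical H4 pairs. In H2A 5 of 9 genes, in H2B 8 of 12, in H3 4 of 6 and in H1 1 of 2 were below 0. These genes share libraries, and some share reads, and are not independent replicates. Without untreated 3 the median over the members was -0.12.

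**Figure D3:**
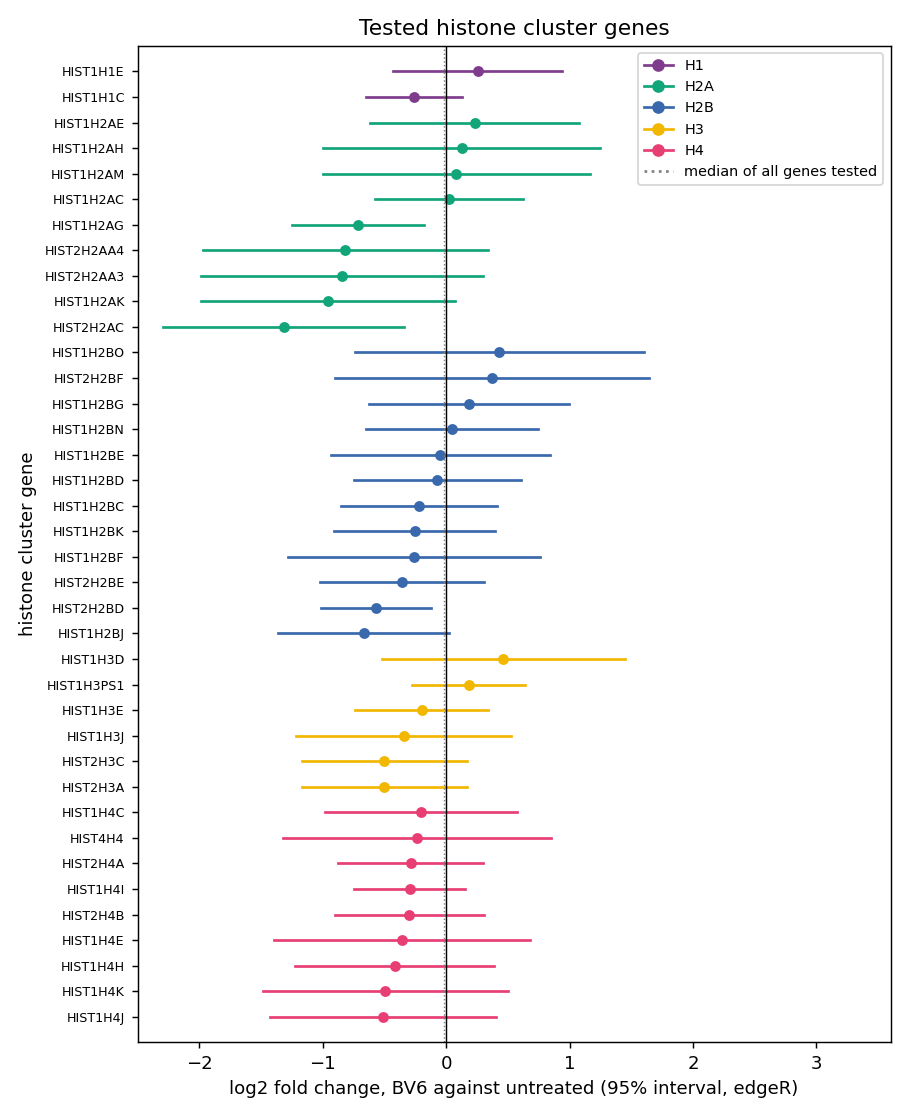
Log2 fold change of BV6-treated against untreated samples for the 38 tested histone cluster genes, as points with 95% intervals derived from the edgeR fit, coloured by histone class. 27 points lie below 0, and the intervals of HIST2H2AC, HIST1H2AG and HIST2H2BD do not reach 0, without adjustment for the number of genes.

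HIST2H2AC, an H2A gene of the HIST2 cluster (chromosome 1, 149886918 to 149887411), had the lowest fold change. Its counts were 53, 40, 32 and 23 in untreated 1 to 4 and 8, 10 and 21 in BV6 2 to 4, or 0.688, 0.713, 0.531 and 0.372 against 0.142, 0.163 and 0.390 CPM. BV6 4 lay just above untreated 4, so the groups overlapped. The log2 fold change was -1.32 (SE 0.434, 95% interval -2.29 to -0.34), with an unadjusted p of 0.0133 and an adjusted p of 0.398 in edgeR.

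HIST1H2AG encodes a core histone H2A in HIST1 (chromosome 6, 27133043 to 27133535). It had 2.62, 2.39, 2.80 and 2.91 CPM in untreated and 1.09, 1.83 and 1.99 CPM in BV6-treated samples. The groups did not overlap, with BV6 2 the lowest sample. The log2 fold change was -0.71 (SE 0.237), with an adjusted p of 0.405 in edgeR.

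The H2B pseudogene HIST2H2BD had 3.40, 3.08, 4.31 and 4.01 CPM in untreated and 2.08, 2.54 and 2.86 CPM in BV6-treated samples, and its groups did not overlap. The log2 fold change was -0.57 (SE 0.199), with an adjusted p of 0.442 in edgeR. HIST1H2AK, an H2A gene with 3 to 15 counts a sample, had 0.195, 0.196, 0.183 and 0.162 CPM against 0.0534, 0.0815 and 0.149 CPM, again without overlap. The log2 fold change was -0.95 (SE 0.459), and its adjusted p was 0.624 in edgeR. In all, the groups did not overlap in 3 tested members, each lower in BV6-treated cells, which is 7.89% of the 38, where 3.89% of all genes tested were lower without overlap. In the other direction 0 of the 38 tested members, and 4.94% of all genes tested, had groups that did not overlap. Among the 34 untested members, named after their values were seen, HIST3H2A had 4, 2, 2 and 6 counts in untreated samples and 0 in every BV6 sample, and HIST1H3G had 0, 2, 0 and 0 counts against 4, 4 and 2. Their groups did not overlap either, lower with BV6 in the former and higher in the latter, at levels around the limit of 3 counts.

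HIST1H2BJ, an H2B gene that lies next to HIST1H2AG, had 1.84, 0.855, 1.84 and 1.91 CPM in untreated and 1.10, 0.815 and 1.13 CPM in BV6-treated samples. Untreated 2 lay among the BV6 samples, and the log2 fold change was -0.67 (SE 0.309, edgeR adjusted p of 0.612). The HIST2H2AA3 gene, with its near-identical copy HIST2H2AA4, had 2.13, 1.37, 1.76 and 1.25 CPM against 1.28, 0.196 and 1.26 CPM. Here BV6 3 was far below the others, and the log2 fold change of -0.84 (SE 0.509) was -0.35 without it. HIST2H3A and HIST2H3C, H3 genes of HIST2 with equal counts, had 1.18, 0.641, 1.14 and 0.809 CPM against 0.623, 0.571 and 0.817 CPM, with a log2 fold change of -0.50 (SE 0.297) and overlapping groups.

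Of the 5 members with the highest CPM, HIST2H2BD is described above, and the other 4 had log2 fold changes between -0.30 and -0.26 and overlapping groups. HIST1H1C had 595, 420, 616 and 424 counts in untreated and 359, 401 and 393 in BV6-treated samples, or 7.72, 7.48, 10.2 and 6.86 CPM against 6.39, 6.54 and 7.30 CPM. Untreated 3 was the highest and BV6 4 lay within the untreated range. The log2 fold change was -0.26 (SE 0.172), and its 95% interval of -0.65 to 0.13 includes 0. Without untreated 3 the log2 fold change was -0.12.

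HIST1H2BK had 6.19, 5.63, 4.35 and 3.62 CPM in untreated and 5.81, 2.56 and 4.09 CPM in BV6-treated samples, a wide spread in both groups. Its log2 fold change was -0.26 (SE 0.290) and 0.0037 without BV6 3, -0.57 without BV6 2 and -0.13 without untreated 1. HIST2H4A, with its near-identical copy HIST2H4B, had 3.36, 2.99, 6.02 and 3.14 CPM against 3.01, 3.11 and 3.42 CPM. Its log2 fold change of -0.29 (SE 0.262) rested on untreated 3 and was 0.0076 without that sample. HIST1H4I had 1.83, 1.89, 2.21 and 1.88 CPM against 1.89, 1.48 and 1.39 CPM, with a log2 fold change of -0.30 (SE 0.200). HIST1H3PS1 differed in sign from these, with means of 2.11 ± 0.338 CPM for the 4 untreated samples and 2.39 ± 0.317 CPM (SDs) for the 3 treated with BV6, and a log2 fold change of 0.18 (SE 0.203), which ranged from 0.08 to 0.28 when a sample was left out.

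**Figure D4:**
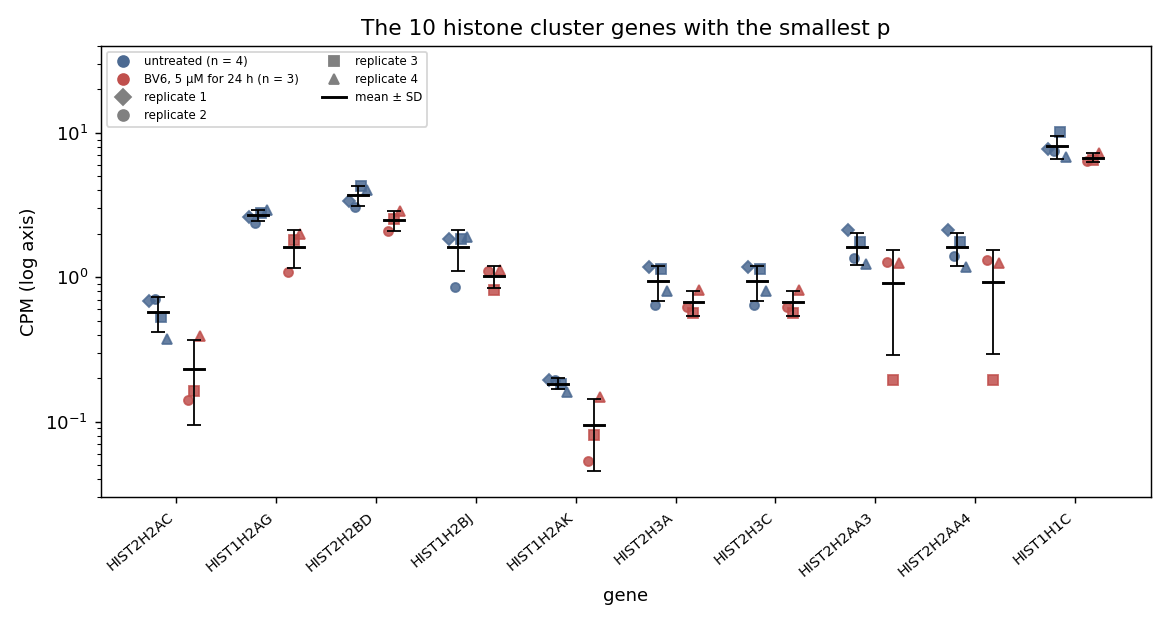
CPM on a log axis for the 10 histone cluster genes with the smallest p in the comparison of BV6 with untreated cells, with the mean and SD of each group. The groups are apart in HIST1H2AG, HIST2H2BD and HIST1H2AK, and BV6 3 lies far below the other samples in HIST2H2AA3 and HIST2H2AA4 at 0.196 CPM.

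H2A and H2B genes often lie head to head and share the bases between their starts, which gives pairs of genes with a common promoter region. There were 12 such pairs with a gap of 170 to 291 bases, and both genes were tested in 8 of them. Partners were both below 0 in 3 pairs, both above 0 in 2 and on opposite sides of 0 in 3. The pairs with both genes below 0 were HIST1H2AG with HIST1H2BJ (log2 fold changes of -0.71 and -0.67), HIST2H2AC with HIST2H2BE (-1.32 and -0.35) and HIST2H2AA3 with HIST2H2BD (-0.84 and -0.57). HIST2H2BE is named here as the partner of HIST2H2AC, after its values were seen. The pairs with both above 0 were HIST1H2AE with HIST1H2BG (0.23 and 0.18) and HIST1H2AM with HIST1H2BO (0.08 and 0.43), also named after their values were seen.

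The shared stretch is shown for the 2 pairs whose H2A gene had the smallest p, as the 250 bases upstream of that gene (GRCh38.p14, sequences from RefSeq). Capitals mark ATGCAAAT, the octamer bound by POU2F1, and the letters of the CCAAT box and of the TATA box, each on either strand.
HIST2H2AC, upstream at chr1:149886668-149886917 on the plus strand: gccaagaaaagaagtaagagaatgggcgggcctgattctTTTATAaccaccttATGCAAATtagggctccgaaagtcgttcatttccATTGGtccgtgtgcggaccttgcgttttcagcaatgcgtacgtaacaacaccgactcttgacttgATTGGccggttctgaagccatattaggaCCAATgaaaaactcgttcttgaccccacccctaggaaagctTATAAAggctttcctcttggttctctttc
HIST1H2AG, upstream at chr6:27132793-27133042 on the plus strand: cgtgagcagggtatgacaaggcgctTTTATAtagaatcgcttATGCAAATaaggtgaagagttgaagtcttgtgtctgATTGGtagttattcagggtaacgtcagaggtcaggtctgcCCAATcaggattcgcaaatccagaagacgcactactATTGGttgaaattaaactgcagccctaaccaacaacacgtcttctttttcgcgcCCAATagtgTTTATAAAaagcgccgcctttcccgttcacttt
Both stretches hold 1 octamer. In each, TTTATA on the side of the H2B gene and TATAAA on the side of the H2A gene frame the region, with 3 CCAAT boxes between them in the first and 4 in the second, where TATAAA overlaps a further TTTATA.

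Over the 60 members with a promoter sequence (windows of 300 bases, 250 before and 50 after the start, both strands), the letters differed by class. ATTTGCAT, the octamer on its other strand, was found in 10 of 15 H2A and 12 of 16 H2B promoters, in 1 of 13 H3 promoters and in 0 of 5 H1 and 0 of 11 H4 promoters, and in 1.80% of all 27305 promoters. CCAAT was found in all 5 H1, 15 H2A, 16 H2B and 13 H3 promoters and in 2 of 11 H4 promoters, against 35.7% of all. TATAAA stood in 41 of the 60, against 12.0% of all. GGTCC, core letters of the site that HINFP binds in H4 genes, was in 11 of 11 H4 promoters and in 46.1% of all promoters. A match in letters is not evidence of binding. Among tested H2A and H2B genes, the 14 with the octamer had a median log2 fold change of -0.13 and the 5 without it one of -0.82. The near-identical HIST2H2AA genes made up 2 of these 5, so this median rests on few independent measurements.

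The factors that make, cleave and degrade histone mRNA showed no calls. Of 29 genes listed for this, 29 were tested with edgeR and 0 were called, with a median log2 fold change of -0.03. An unadjusted p below 0.05 was found in 3 of them (10.3%, all genes 8.39%). SLBP, the stem-loop binding protein, had 55.7, 69.0, 59.6 and 53.2 CPM in untreated and 64.6, 60.0 and 41.1 CPM in BV6-treated samples. BV6 4 was the lowest and BV6 2 within the untreated range, with a log2 fold change of -0.10 (SE 0.166), which was 0.07 without BV6 4. NPAT, the coactivator of histone gene transcription in S phase, had 28.7 ± 1.83 CPM (SD, n = 4) and 33.8 ± 4.21 CPM (SD, n = 3), and a log2 fold change of 0.23 (SE 0.124) with an edgeR adjusted p of 0.671.

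CCNE1, the cyclin E that with CDK2 phosphorylates NPAT, had 29.3, 25.3, 27.8 and 27.1 CPM in untreated and 20.3, 21.0 and 21.9 CPM in BV6-treated samples. The groups did not overlap, and the log2 fold change was -0.38 (SE 0.112) with an edgeR adjusted p of 0.307. E2F1, a transcription factor of S-phase genes, had 182 ± 22.2 and 141 ± 20.5 CPM without overlap and a log2 fold change of -0.37 (SE 0.135). Of the 29 genes, 2 were lower and 1 higher without overlap, against 3.89% and 4.94% of all genes tested. The third gene at this p was TUT7, which adds uridines to histone mRNA before its decay, with a log2 fold change of 0.28. It was named after its values were seen.

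Among 16 histone chaperones 16 were tested and 0 called by edgeR, with a median of -0.02 and 1 gene at an unadjusted p below 0.05. ASF1B, which hands over H3 and H4 during replication, had 103 ± 8.93 CPM in untreated and 77.4 ± 13.8 CPM in BV6-treated samples, a log2 fold change of -0.42 (SE 0.135) and an edgeR adjusted p of 0.385. ATRX, which deposits H3.3 with DAXX, had a log2 fold change of 0.23 (SE 0.109).

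Of the 20 DNA replication genes, 20 were tested, 0 were called by edgeR and 1 had an unadjusted p below 0.05 (5%, all genes 8.39%). Their median log2 fold change was -0.12, and 17 of the 20 were below 0 (85%, all genes 52.3%). Their summed CPM was lower with BV6 in 3 of 3 pairs of the same replicate number, with overlapping groups. TK1, thymidine kinase of the DNA precursor pathway, had a log2 fold change of -0.45 (SE 0.238), and GINS2, a subunit of the replicative helicase complex, one of -0.31 (SE 0.136). Without BV6 3 the value of TK1 was -0.19. Values below 0 were also frequent among the muscle markers, with 11 of 14 tested genes (78.6%) and a median of -0.23. In edgeR 3 of these genes (21.4%) had an unadjusted p below 0.05, all lower, against 4.26% of all genes tested. Their sum was 3241 ± 391 CPM in untreated and 2764 ± 672 CPM in BV6-treated samples, with overlapping groups. The leukocyte markers had a median of -0.05 over 8 tested genes and those of fibroblasts, epithelium and endothelium one of -0.13 over 5. The part of cell cycle phase or of other cell states in the members' values was not tested.

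Of the 15 replacement histones, 10 were tested and 0 called by edgeR, with 1 at an unadjusted p below 0.05. All 10 had a log2 fold change below 0 (all genes 52.3%), with a median of -0.15. Groups did not overlap in 2 of the 10, both lower, against 3.89% of all genes tested. The sum over the 15 was 2232 to 2350 CPM in untreated and 1933 to 2215 CPM in BV6-treated samples. These groups did not overlap, and the BV6 sample was the lower one in 3 of 3 pairs of the same replicate number. H2AFX, the variant phosphorylated at DNA breaks, had 158, 114, 77.7 and 85.4 CPM in untreated and 65.3, 28.4 and 73 CPM in BV6-treated samples. The groups did not overlap, BV6 3 was the lowest sample, and the log2 fold change was -0.97 (SE 0.337) with an edgeR adjusted p of 0.438. Its mRNA can end in a stem-loop or a poly(A) tail. H2AFV, a form of the variant H2A.Z, had a log2 fold change of -0.22 (SE 0.101).

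RNAs without a poly(A) tail were set beside the members because carry-over of such RNA also enters a poly(A)-selected library. The 30 RNAs listed summed to 41.1, 84.9, 106 and 179 CPM in untreated 1 to 4 and to 66.7, 55.4 and 194 CPM in BV6 2 to 4, a wider relative range than that of the histone cluster genes (41.1 to 70.5 CPM). Untreated 4 and BV6 4 were the highest in this sum, and untreated 3 was the highest for the histone cluster genes. The part of carry-over in the members' values was not tested. Of the 16 tested, 0 were called by edgeR and 0 had an unadjusted p below 0.05, with a median log2 fold change of 0.07. RN7SK, a nuclear RNA that restrains the kinase P-TEFb, had a log2 fold change of 0.68 (SE 0.370), or 0.37 without BV6 4, and SNORA73B, a small nucleolar RNA, one of 0.22 (SE 0.166).

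**Figure D5:**
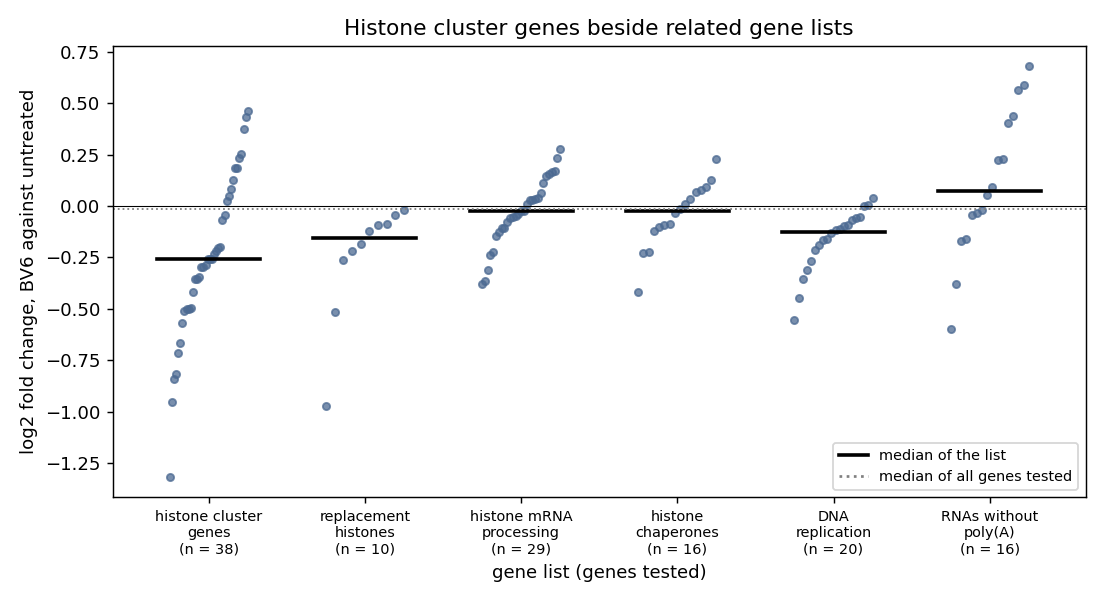
Log2 fold change of BV6-treated against untreated samples for the tested genes of the histone clusters and of 5 related lists, each point a gene and each bar the median of its list, with the median of all genes tested as a dotted line. The medians are -0.26 for the histone cluster genes, -0.15 for the replacement histones, -0.12 for the DNA replication genes and 0.07 for RNAs without a poly(A) tail.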

How the data were processed

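Per the labels and the study's methods, the authors made stranded, paired-end libraries from poly(A)-selected RNA of RH30 cells, mapped the reads to GRCh38 with STAR 2.6.1d, and counted them with a union model of Ensembl release 95. They deposited raw counts per gene for 57189 genes. The counting program, its use of strand and its treatment of mates and of reads on several genes are not given in the sources used here. Total counts per sample (54070030 to 77220882) were above the range of reads per library that the study reports. The near-identical genes HIST2H3A and HIST2H3C had equal counts in all 7 samples. Counts of 1 to 8 were even in 60.4% of values over all genes and in 72.3% among the histone cluster genes. Whether 1 count stands for 1 read pair was not tested, and the limit of 3 counts shares this uncertainty.

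The histone cluster genes and the gene lists were chosen with earlier results of these data known. From the deposited counts, fold changes were computed with edgeR 4.0.16 in R 4.3.3 (filterByExpr with a minimum count of 10, TMM, glmQLFit, glmQLFTest, condition only, all 7 samples) and Benjamini-Hochberg adjustment over 23124 genes. Standard errors (SE) were derived here from the fold change and F statistic of edgeR. The 95% intervals use these standard errors and the t distribution. The scripts were tested on simulated data. The smallest p that an exact two-sided permutation test of 4 against 3 samples allows is 0.0571, so it was not used. Old symbols were matched to current ones through RefSeq (72 of 72), and coordinates, overlaps and exon lengths come from GENCODE release 44, not from the authors' gene model.

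The genes named are the 10 members with the smallest p, the 5 with the highest CPM, the member with the highest level per length in each class, SLBP and NPAT, and the 2 genes with the smallest p in each of the other 5 lists. For the pairing of replicate numbers 2, 3 and 4, deviations from the group means of the 6 samples sharing a number correlated across genes with r of 0.515, 0.322 and 0.197 (0.462, 0.438 and 0.0847 with means over all 7 samples). Samples of different numbers were not correlated in this way, so these values have no baseline and cannot show whether the samples are paired. The numbers were assigned from the BC labels of the sample titles, whose meaning is not given, and were taken to pair the samples. Alternatives were DESeq2 1.42.0, limma-voom (limma 3.58.1), RLE factors, total counts, other filters, the replicate block and leaving out each sample. Sums without pseudogenes or near-identical copies were added after the data were seen.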

Additional observations from a re-analysis of the deposited data

Results flagged for a closer look

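In the group of 4 untreated samples, 5 of 38 values examined had 1 sample far from the other 3, at a gap beyond Dixon's 95% critical value. Chance gives this in about 5% of such groups, and the values are not independent, since they share samples and reads. In 4 of the 5 it was untreated 3, in genes of the H4 class or their sum. The summed CPM of the H4 class was 18.2 in untreated 3 and 10.5 to 11.6 in the others. HIST2H4A had 6.02 CPM there against 2.99 to 3.36, and HIST2H4B, its near-identical copy, 6.02 CPM against 2.85 to 3.36. HIST1H4I had 2.21 CPM against 1.83 to 1.89. In HIST1H2BJ it was untreated 2, with 0.855 CPM against 1.84 to 1.91 in the other untreated samples, a level within that of the BV6-treated samples.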

How the results depend on the processing

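The count of 0 called histone cluster genes was the same in all 13 alternative fits, as was the count of 0 in each of the 5 other lists, and none of the 27 named genes was called in any fit that tested it. The number of members at an unadjusted p below 0.05 was 3 of 38 (7.89%, all genes 8.39%). It was 5 of 72 with DESeq2 (6.94%, all genes 5.26%), which also tested the genes below the filter, so that 4 of the 5 were among the 38, and 6 of 72 without a filter on low counts (8.33%, all genes 6.64%). It was 1 to 4 when a sample was left out. The added members were HIST3H2A and HIST1H2BJ with DESeq2, and these and HIST2H2AA3 without the filter, named after their values were seen. HIST3H2A had 14 counts in all. Without BV6 replicate 2 the number was 1, with HIST1H2AG remaining. The median log2 fold change of the tested members ranged from -0.35 to -0.12 when a sample was left out, the latter without untreated replicate 3, and from -0.31 to -0.24 otherwise. Signs reversed for HIST1H2BK without BV6 replicate 3 (0.0037), for HIST2H4A (0.0076) and HIST2H4B (0.0028) without untreated replicate 3, and for SLBP without BV6 replicate 4 (0.068). When a sample was left out, these 4 genes ranged down to -0.57, -0.39, -0.42 and -0.22. The log2 ratio of summed CPM ranged from -0.39 to -0.17 when a sample was left out and from -0.29 to -0.26 otherwise. For the classes, the ratio when a sample was left out ranged from -0.29 to -0.09 for H1, -0.64 to -0.27 for H2A, -0.37 to -0.10 for H2B, -0.24 to -0.05 for H3 and -0.38 to -0.08 for H4. The H1 ratio was 0.12 without HIST1H1C, its most abundant gene, and the H3 ratio -0.34 without pseudogenes. With the replicate block, 0 members were called, 3 had an unadjusted p below 0.05 and the median was -0.28, and the block changed no call of a named gene. Over all genes tested, edgeR called 104, the replicate block 218, DESeq2 408 and the fit without a filter 242. The 34 members below the filter had at most 73 counts in all, which limits what can be said of them.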
